A study of Mus musculus with 6 samples.

Results

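The genes described here encode the proteins of the large (60S) subunit of the cytosolic ribosome. They were taken by name from the gene symbols of the count tables: every Rpl symbol that ends in a number, with or without a, x or y after it, and Rplp0, Rplp1 and Rplp2. This gave 46 genes of 33006. Proteins of the mitochondrial ribosome, pseudogenes and the Rpl-like paralogs have other symbols and were not members.

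RNA was sequenced from primary pulmonary endothelial cells of C57BL/6 mice, grown in a commercial endothelial medium. The H2O2 group (3 libraries) had received 300 uM hydrogen peroxide for 6 hours, and the control group (3 libraries) had received water. No genotype, transgene or further agent is named for either group. The labels do not say whether the libraries of a group came from separate cultures or animals, so a p-value here reflects library-to-library variation only, and that may be technical.

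Each ribosome carries the large-subunit proteins around its ribosomal RNAs. The large subunit forms peptide bonds, holds the tunnel through which the nascent chain leaves, and carries the P-stalk, a flexible arm that recruits the GTPases of translation. Most mammalian mRNAs for ribosomal proteins begin with a short run of C and T called a 5′ terminal oligopyrimidine (TOP) tract, which places their translation under the control of mTOR complex 1. Rpl5 and Rpl11 also have a role outside the ribosome, where with 5S ribosomal RNA they bind and inhibit Mdm2, the ubiquitin ligase of p53.

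The annotated start sites of the genes were read for this pyrimidine signature. RefSeq promoter windows (build GRCm38.p6) were at hand for 34 of the 46 members, with 40 start sites. Between 15 bases before and 15 bases after the annotated start, on the transcribed strand, 18 of the 40 windows (45.0%) held a run of at least 8 C or T, against 12.0% of 32851 windows of all genes. A TOP tract begins at the first transcribed base, and by that stricter reading the match was rarer. The annotated GENCODE M21 transcript, 1 for each gene, began with at least 5 C or T in 7 of 46 members (15.2%). The same held for 3.8% of 21285 protein-coding genes of the tables. The first base of that transcript need not be the RefSeq start. Rpl7a had a run of 21 bases in its RefSeq window but 0 C or T from the first base of its GENCODE transcript. The 15.2% is therefore not a count of members with a TOP tract. The letters CTTTC, which can lie inside such a run, were in 30.0% of the members' windows and in 4.0% of all windows. Over the whole window of 300 bases on both strands, CCGGAAG, the core letters bound by ETS family factors, was in 35.0% against 8.9%, and AAGATGGC, letters of the YY1 motif, in 12.5% against 2.7%. TATAAA was in none of the 40 windows in the stretch upstream of the start where a TATA box would lie, on the transcribed strand, and in 2.0% of all. These matches are descriptions of the sequence.

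The windows of members on which the results below turn are shown to set their start sites beside their different responses, with the longest run of C and T in capitals; where a gene had several annotated starts, the start with the longest run is given. Rpl9, Rpl19, Rpl35a and Rpl39 were among the 5 largest increases, Rpl24, Rpl4 and Rpl7a among the 5 smallest changes, and Rplp0 is the scaffold of the P-stalk.
Rpl9, chr5:65391417-65391446, minus strand: acgcagggCCCTgacggattacaagaacgt
Rpl19, chr11:98026909-98026938, plus strand: tgggCTCTCCCCTTCgcagataatgggcgg
Rpl35a, chr16:33056467-33056496, plus strand: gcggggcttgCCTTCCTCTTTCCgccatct
Rpl39, chrX:37085208-37085237, minus strand: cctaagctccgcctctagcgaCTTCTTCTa
Rplp0, chr5:115559452-115559481, plus strand: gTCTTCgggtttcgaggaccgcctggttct
Rpl7a, chr2:26910792-26910821, plus strand: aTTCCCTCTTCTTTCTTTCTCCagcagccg
Rpl4, chr9:64173372-64173401, plus strand: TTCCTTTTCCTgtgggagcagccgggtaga
Rpl24, chr16:55966260-55966289, plus strand: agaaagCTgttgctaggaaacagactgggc
The longest of these runs, 21 bases, belonged to Rpl7a, whose transcript changed little. In the window of Rpl9, which had the largest increase of all members, the longest run was 4 bases and lay wholly before the annotated start. The marked runs of Rpl19, Rplp0, Rpl4 and Rpl24 also lay wholly before it, so a marked run need not be a TOP tract. Among the windows shown, a long run was present both in members with large increases and in members with small ones. These windows were picked by response and, for genes with several starts, by longest run. Whether runs go with the response over all members was not tested.

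With H2O2, nearly all large-subunit transcripts were higher, by modest amounts. By the quasi-likelihood test of edgeR, with p-values adjusted by Benjamini-Hochberg over 12924 genes, 44 of 46 members were higher at an adjusted p below 0.05 and 0 were lower, against 9.7% of all genes tested that were higher and 10.8% that were lower. At an unadjusted p below 0.05 the count of lower members was 1 (Rpl24), and DESeq2 also called 0 lower. All 46 members passed the filter on low counts. The median log2 fold change of the members was 0.33, which is 1.25-fold, and the median of all genes tested was -0.00. The changes ran between -0.13 for Rpl24 and 0.64 for Rpl9; 31 members changed 1.2-fold or more, and 2 of these 1.5-fold or more.

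**Figure D1:**
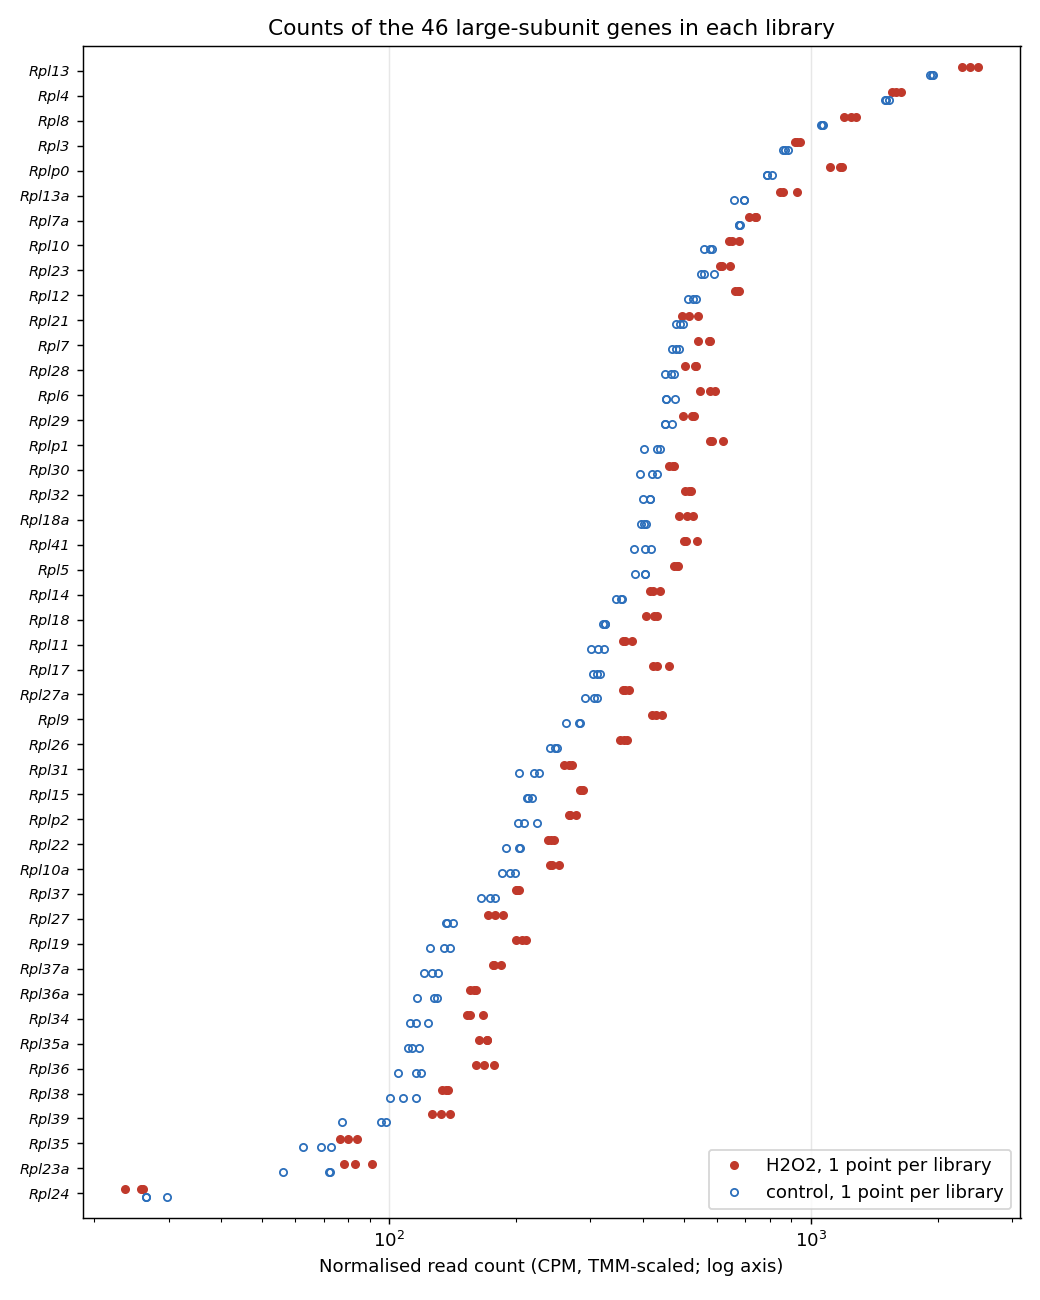
Normalised read count (CPM, log axis) of each of the 46 genes in each library, H2O2 as filled and control as open points, ordered by the control mean. For 44 genes all 3 H2O2 points lie to the right of all 3 control points; Rpl21 overlaps and Rpl24 lies the other way.

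In 44 members every H2O2 library was above every control library, as it was in 16.5% of all genes tested. Rpl21 was the single member whose groups overlapped, and Rpl24 the single member with every H2O2 library below every control library. The share of all genes that lay below in this way was not counted. Values are given as normalised read counts (CPM, in which TMM factors bring the libraries to 1 size). A summed measure needs no such factors: large-subunit genes took 2.31, 2.20 and 2.30% of all gene counts in the 3 H2O2 libraries, against 1.89, 1.81 and 1.86% in the 3 controls. The means were 2.27% ± 0.0577 with H2O2 and 1.85% ± 0.0419 in controls (SD, n = 3 each), and the groups did not overlap. A two-sided exact permutation test of this share gave p = 0.1, the smallest value that 3 against 3 libraries allow. In bulk RNA, a change in the number of cells of a type and a change in RNA per cell cannot be told apart.

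The P-stalk proteins and their base were all higher, 4 of 4, with a median log2 change of 0.42. This count and those of the role groups below stand beside 44 of 46 for all members and 9.7% of all genes tested. A high count is therefore not particular to any role group. Rplp0, the scaffold of the stalk, had 1189, 1114 and 1173 CPM in the H2O2 libraries, against 789, 809 and 788 CPM in the controls. Its increase was 1.46-fold (log2 change 0.54, SE 0.0286, adjusted p = 3.4e-13), and the lowest H2O2 library stood well above the highest control. Rplp1, an acidic protein whose C-terminal tail contacts elongation factors, had 621, 576 and 582 CPM with H2O2 and 439.8, 401 and 433 CPM in controls. It rose 1.40-fold (log2 change 0.48, SE 0.0338, adjusted p = 5.4e-11), again without overlap. Rplp2, the partner with which Rplp1 forms dimers, had 277, 269 and 267 CPM with H2O2 and 225, 202 and 209 CPM in controls, a smaller rise of 1.28-fold (log2 change 0.36, SE 0.0341, adjusted p = 1.4e-08). Rpl12 sits at the base of the stalk beside the factor binding site. It had 674, 661 and 677 CPM with H2O2, against 535, 511 and 527 CPM in controls, and rose 1.28-fold (log2 change 0.36, SE 0.0275, adjusted p = 2.7e-10). All 3 H2O2 libraries were above all 3 controls in each of the 4 genes.

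Both proteins that bind 5S ribosomal RNA were higher, by less than most other members. Rpl5 had 474, 483 and 483 CPM in H2O2 libraries and 404, 384 and 406 CPM in controls, a rise of 1.21-fold (log2 change 0.27, SE 0.0290, adjusted p = 9.3e-08). Rpl11, its partner in the 5S particle, had 376, 359 and 362 CPM with H2O2 and 323, 301 and 314 CPM in controls and rose 1.17-fold (log2 change 0.23, SE 0.0312, adjusted p = 5.4e-06). In neither gene did the groups overlap.

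All 9 proteins that line the nascent chain tunnel or surround its exit were higher, with a median log2 change of 0.33, but they spanned almost the whole range of the subunit. Rpl19, whose long helix extends toward the small subunit, stood at the top of this group with 212, 199.6 and 207 CPM in H2O2 libraries, against 139.7, 125 and 135 CPM in controls. The rise was 1.55-fold (log2 change 0.63, SE 0.0367, adjusted p = 1.8e-12), and every H2O2 library was far above every control. Rpl39, a very small protein inside the tunnel, had 127, 139 and 133 CPM with H2O2 and 95.7, 77.2 and 98.2 CPM in controls, and control replicate 2 was the lowest library. It rose 1.48-fold (log2 change 0.56, SE 0.0553, adjusted p = 2.4e-08). Rpl26, at the rim of the exit, had 366, 360.0 and 353 CPM with H2O2 and 247, 240.3 and 251 CPM in controls, a rise of 1.46-fold (log2 change 0.55, SE 0.0295, adjusted p = 4.8e-13).

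At the other end of the same group stood Rpl4, which together with Rpl17 forms the narrow part of the tunnel. Rpl4 had 1594, 1562 and 1636 CPM with H2O2, against 1537, 1498 and 1511 CPM in controls, and its groups lay close together without overlap. The change was 1.05-fold (log2 change 0.08, SE 0.0273, adjusted p = 0.0476). That call was lost without H2O2 replicate 1 (adjusted p = 0.0905), H2O2 replicate 3 (0.128), control replicate 2 (0.176) or control replicate 3 (0.164). Rpl17, its neighbour in the tunnel, averaged 438 ± 19.8 CPM with H2O2 and 311 ± 5.82 CPM in controls (SD, n = 3 each) and rose 1.41-fold (log2 change 0.49, SE 0.0318, adjusted p = 1.0e-11). Rpl23a and Rpl35 frame the exit and dock factors that receive the nascent chain. Rpl23a averaged 84.0 ± 6.49 CPM with H2O2 and 66.8 ± 9.23 CPM in controls, a log2 change of 0.33 with an SE of 0.0636, the largest SE of all members; its adjusted p was 3.5e-04 with edgeR and 0.055 with DESeq2. Rpl35 averaged 80.2 ± 3.79 CPM with H2O2 and 68.1 ± 5.19 CPM in controls (log2 change 0.24, SE 0.0468, adjusted p = 4.8e-04).

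The 5 proteins of the peptidyl transferase region and the tRNA sites were all higher, with a median log2 change of 0.23. Rpl10a, which forms the L1 stalk that moves with the tRNA leaving the E site, had 253, 241 and 244 CPM in H2O2 libraries and 199, 185 and 193 CPM in controls, a rise of 1.28-fold (log2 change 0.35, SE 0.0321, adjusted p = 5.3e-09) without overlap. Rpl3, which reaches close to the catalytic centre, had 942, 918 and 929.8 CPM with H2O2 and 870.3, 859.6 and 885 CPM in controls. Its rise was 1.07-fold (log2 change 0.09, SE 0.0264, adjusted p = 0.0120), and the call was lost without H2O2 replicate 1 (adjusted p = 0.0521) or control replicate 2 (0.0789). Rpl10, whose loop reaches toward the P site and whose joining is a late step of subunit maturation, averaged 656 ± 19.3 CPM with H2O2 and 574 ± 11.9 CPM in controls (log2 change 0.19, SE 0.0286, adjusted p = 1.5e-05).

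Of the 4 proteins of the bridges to the small subunit, 3 were higher, and the median log2 change was 0.16. Rpl41, a very short peptide held mostly by the small subunit, had 536, 502 and 507 CPM with H2O2, against 417, 380.4 and 404 CPM in controls. It rose 1.29-fold (log2 change 0.36, SE 0.0331, adjusted p = 6.3e-09) without overlap. Rpl23 averaged 624 ± 18.3 CPM with H2O2 and 566 ± 20.1 CPM in controls, a change of 1.10-fold (log2 change 0.14, SE 0.0301, adjusted p = 0.00124).

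Rpl24, the fourth bridge protein, was the single member on the lower side. It had 25.8, 26.1 and 23.7 CPM in the H2O2 libraries, against 26.5, 26.6 and 29.7 CPM in the controls, so that all H2O2 values lay below all control values by a small margin. The log2 change of -0.13 (SE 0.0602) did not pass the test, with an adjusted p of 0.140. When length and GC content of the transcripts were offset, it was -0.22 with an adjusted p of 0.00624, and the gene was then called lower. Rpl24 also had the lowest counts of all members, with 649 to 721 counts in H2O2 libraries and 664 to 676 in controls. Of its 50-base stretches, 81.7% also occur in 10 other genes of the GENCODE M21 annotation. The gene model Gm28037 overlaps 47.0% of its exon bases on the same strand. Genes at the same place were not left out of this comparison, so the 81.7% can include stretches shared only with Gm28037. Gm28037 is not among the symbols of the count tables. Reads from stretches that occur at several places can be set aside as aligned to several places, and how many were lost in this way was not tested.

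The other 22 proteins of the core and surface had a median log2 change of 0.33, and 21 of them were higher. Rpl9 lies next to the factor binding region and had the largest increase of all members. It had 443, 422 and 430.1 CPM with H2O2, against 282, 263 and 285 CPM in controls, a rise of 1.56-fold (log2 change 0.64, SE 0.0320, adjusted p = 1.1e-13). The groups were widely separated, and control replicate 2 was again the lowest library. Of the 50-base stretches of Rpl9, 93.3% are shared with 14 other genes. The named pseudogene Rpl9-ps6 had 41, 40 and 29 counts with H2O2, against 26, 21 and 16 counts in controls, a small number beside the counts of Rpl9 itself.

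Rpl36, a small surface protein, had 177, 161 and 168 CPM with H2O2 and 119, 105 and 116 CPM in controls, a rise of 1.49-fold (log2 change 0.57, SE 0.0412, adjusted p = 8.1e-11). Rpl35a, a protein whose gene is mutated in some human patients with Diamond-Blackfan anaemia, had 171, 163 and 171 CPM in H2O2 libraries and 113, 111 and 118 CPM in controls. It rose 1.48-fold (log2 change 0.56, SE 0.0341, adjusted p = 3.3e-12), and neither gene showed overlap.

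Rpl21 and Rpl7a changed least in this group. Rpl21, which sits near the 5S particle, had 516, 497 and 539 CPM with H2O2, against 498, 479 and 489 CPM in controls, with H2O2 replicate 2 below control replicate 1. Its change of 1.06-fold (log2 change 0.08, SE 0.0305, adjusted p = 0.0561) just missed the threshold and was called higher in 12 of the 18 alternatives that were run. Rpl7a, a surface protein that binds 28S ribosomal RNA, had 744, 713 and 737 CPM with H2O2 and 675, 678 and 677 CPM in controls, with 3 nearly equal control values. It rose 1.08-fold (log2 change 0.11, SE 0.0267, adjusted p = 0.00329), and when length and GC content were offset its log2 change was 0.05 (adjusted p = 0.153), past the threshold no longer. Of the members not named singly, Rpl37a and Rpl34 were at the upper end with log2 changes of 0.51 and 0.44, and Rpl30 and Rpl28 at the lower end with 0.17 and 0.17. Rpl13a, known in human cells for a role in inflammatory translation control outside the ribosome, rose by 0.36, near the median of the members.

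**Figure D2:**
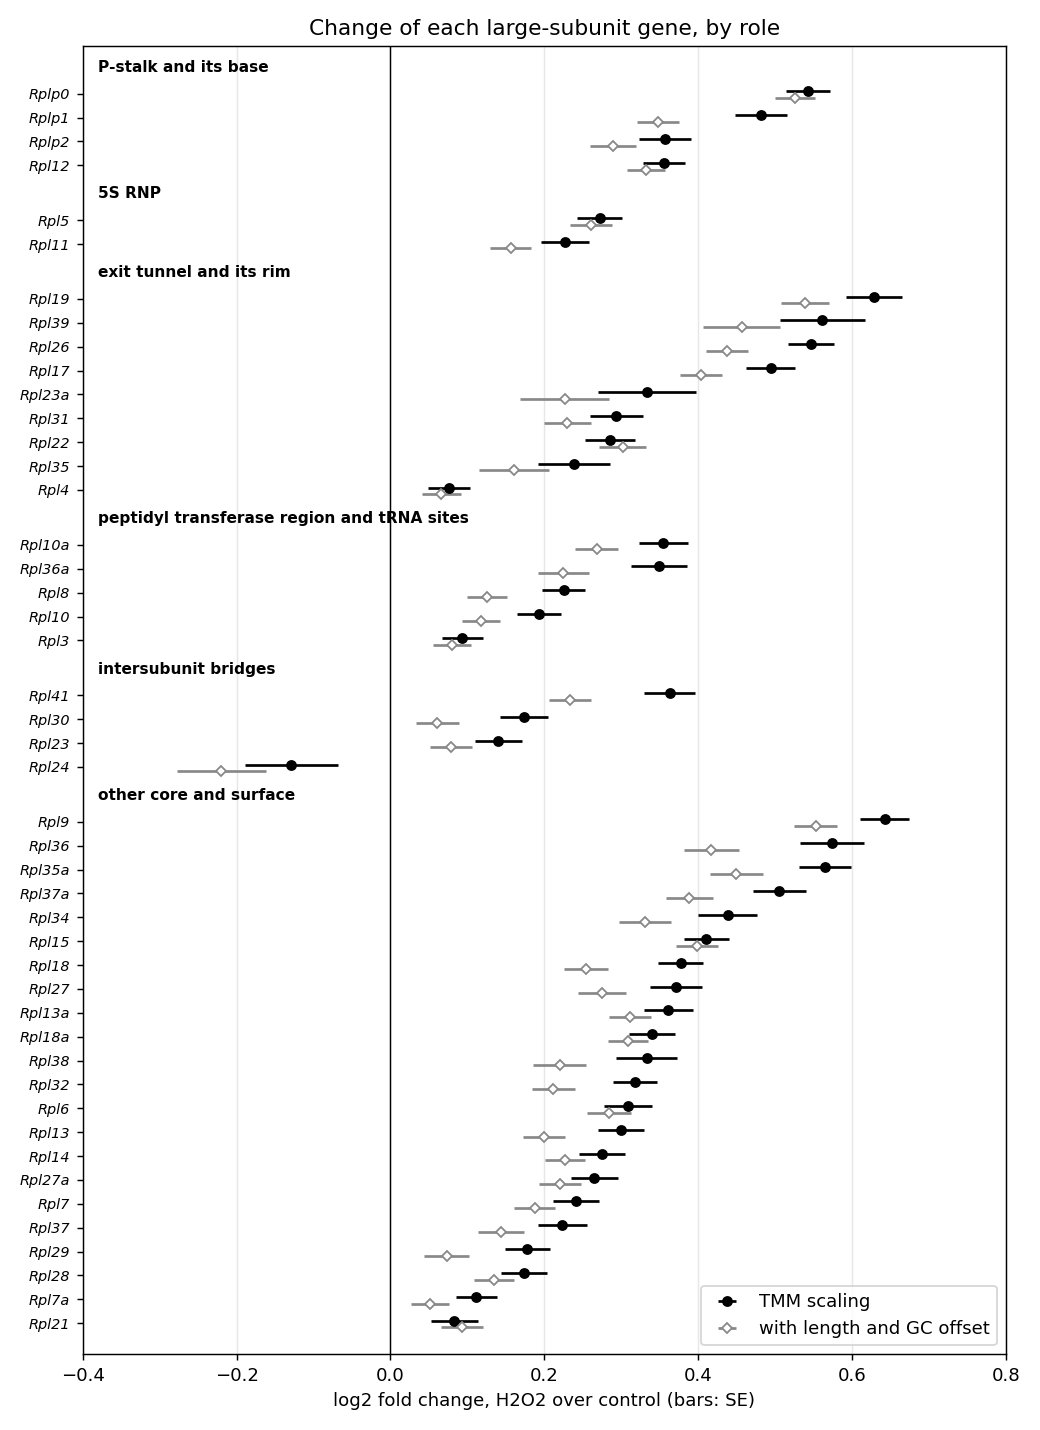
Log2 fold change of each gene, H2O2 over control, with its SE, in 6 role groups; black circles use TMM scaling and grey diamonds also take out transcript length and GC content. All circles but that of Rpl24 lie above 0, and the offset moves the median of the members to 0.23 from 0.33.

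The members were also grouped by evolutionary origin. The 18 proteins with bacterial counterparts were all higher, with a median log2 change of 0.27. Of the 26 proteins without a bacterial counterpart, apart from the acidic stalk proteins, 24 were higher, with a median of 0.33. Rplp1 and Rplp2 were the remaining pair. Both counts stand beside 44 of 46 for all members and 9.7% of all genes tested. The median annotated length was 996.5 bases for the 18 and 706 bases for the 26. The difference between the medians of log2 change was not tested.

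Since nearly all members were higher together, each was also set against the summed counts of the 46 genes, with that sum as the library size in the same edgeR test. This asks whether a member made up more or less of the large-subunit transcripts with H2O2. The share was higher for 13 members, lower for 10, and not called for 23. Of all 12924 genes 0.689% were higher and 73.9% lower by this measure, because the large-subunit sum itself was higher with H2O2. Of the calls, 12 higher and 7 lower were made in each of the 11 settings that were run.

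Rplp0 made up 5.12% ± 0.0571 of large-subunit counts with H2O2 and 4.28% ± 0.139 in controls (SD, n = 3 each; log2 change 0.26, SE 0.0387, adjusted p = 2.1e-07). Rpl9 made up 1.91% ± 0.0133 with H2O2 and 1.49% ± 0.0393 in controls (log2 change 0.36, SE 0.0397, adjusted p = 3.5e-10). Rpl19 made up 0.910% ± 0.00429 with H2O2 and 0.717% ± 0.0288 in controls (log2 change 0.34, SE 0.0427, adjusted p = 4.2e-09). These 3 had the smallest p-values for a higher share. They were followed by Rpl35a, Rpl26 and Rpl36, whose shares changed by 0.28, 0.26 and 0.29 on the log2 scale (adjusted p = 3.2e-07, 2.8e-07 and 3.4e-07).

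Of the members with a lower share, Rpl4 made up 7.06% ± 0.156 with H2O2 and 8.16% ± 0.0701 in controls (log2 change -0.21, SE 0.0385, adjusted p = 6.6e-06). Rpl3 made up 4.11% ± 0.0492 with H2O2 and 4.69% ± 0.0623 in controls (log2 change -0.19, SE 0.0379, adjusted p = 1.9e-05). The share of Rpl24 was 0.111% ± 0.00720 with H2O2 and 0.149% ± 0.00952 in controls, the largest loss on the log2 scale (log2 change -0.41, SE 0.0651, adjusted p = 4.2e-07). Rpl21 and Rpl7a also lost share, by log2 changes of -0.20 and -0.17 (adjusted p = 1.4e-05 and 8.0e-05). The 3 most abundant members by count, Rpl13, Rpl4 and Rpl8, together held 23.1% ± 0.166 of the large-subunit counts with H2O2 and 24.3% ± 0.256 in controls.

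Rpl5 and Rpl11 had log2 changes in share of -0.01 (SE 0.0397, adjusted p = 0.766) and -0.06 (SE 0.0395, adjusted p = 0.174). Neither passed the threshold, but with length and GC content offset the share of Rpl11 was lower (log2 change -0.06, adjusted p = 0.0444). Within the P-stalk the share of Rplp1 was higher (log2 change 0.20, adjusted p = 2.9e-05), while those of Rplp2 (0.07, adjusted p = 0.114) and Rpl12 (0.07, adjusted p = 0.0942) were not called. These 2 results depended on the fit: with length and GC content offset the share of Rpl12 was higher (log2 change 0.11, adjusted p = 0.000498), and without control replicate 1 that of Rplp2 was higher (0.11, adjusted p = 0.0327).

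**Figure D3:**
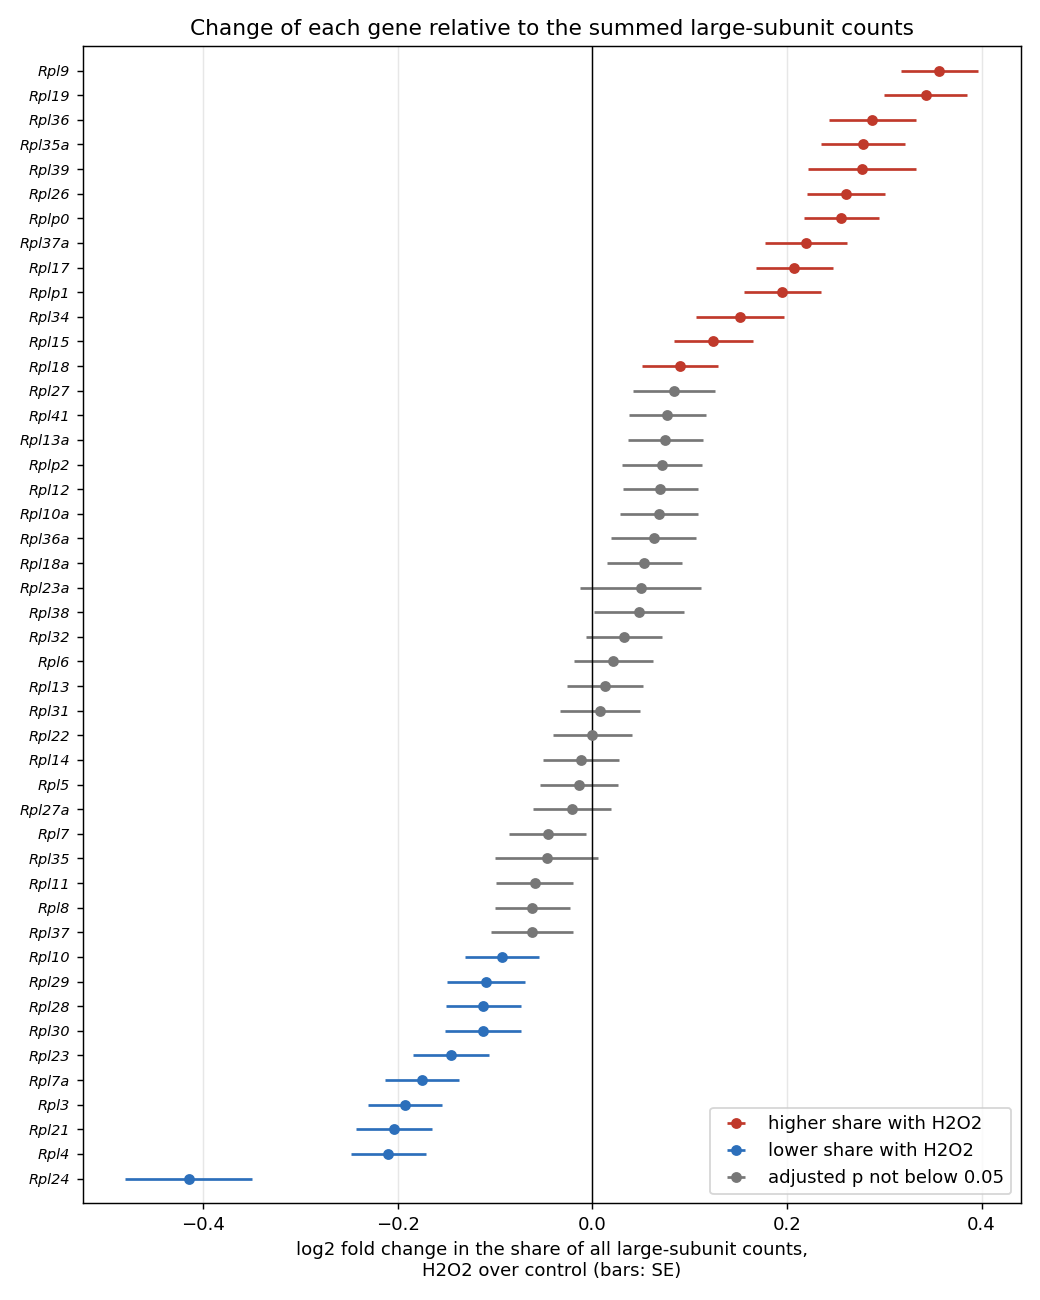
Log2 fold change, H2O2 over control, in the share that each gene takes of all large-subunit counts, with its SE; red marks a higher share, blue a lower share and grey no call. The largest gains are those of Rpl9 (0.36) and Rpl19 (0.34) and the largest loss is that of Rpl24 (-0.41).

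The levels of the members differed far more than their responses. Per kilobase of annotated transcript, Rpl13 was highest, with 3058 CPM per kb with H2O2 and 2484 in controls, and Rpl24 lowest, with 37.2 and 40.8 CPM per kb in the same groups. The median member had 439.9 CPM per kb with H2O2 and 356 in controls. The order was nearly the same in both groups (Pearson 0.99 and Spearman 0.98 over 46 genes that share their libraries). Of the 5 members that moved by more than 3 places, Rplp0 held rank 7 with H2O2 and rank 13 in controls, Rpl9 ranks 17 and 22, and Rpl35a ranks 28 and 33 in the same groups. Rpl7a held rank 11 with H2O2 and rank 7 in controls. The longest move was that of Rpl21, which held rank 36 with H2O2 and rank 28 in controls. These levels rest on annotated lengths and on the reads that the counting assigned to each gene. Members with many near-identical copies or with an overlapping gene are therefore uncertain.

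Among other genes, short transcripts had higher median changes than long ones, and large-subunit transcripts are short, with a median annotated length of 831.5 bases. Among other genes under 600 bases the median log2 change was 0.16 and 22.4% were higher at the threshold; the 12 members of that length had a median of 0.40. Between 600 and 1000 bases the median of the other genes was 0.10, with 23.6% higher, and that of 17 members was 0.30. Between 1000 and 1500 bases the median of the other genes was 0.05, and that of 12 members 0.28. The 5 members between 1500 and 2500 bases had a median of 0.27, where the other genes had -0.00.

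Once length and GC content were offset, by a curve fitted in each library on genes outside the lists, 41 members were higher and 1 was lower, and the median log2 change was 0.23. Over all 12924 genes of that fit, 1248 were higher and 1330 lower, with a median of -0.00. Rpl4, Rpl7a, Rpl29 and Rpl30 were then no longer called, and Rpl21 was. Within the members the log2 change went with log2 length at a Pearson correlation of -0.37 (Spearman -0.43), with the log2 control level at -0.23 (Spearman -0.42) and with GC content at 0.10 (Spearman 0.13), over 46 genes measured in the same 6 libraries.

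**Figure D4:**
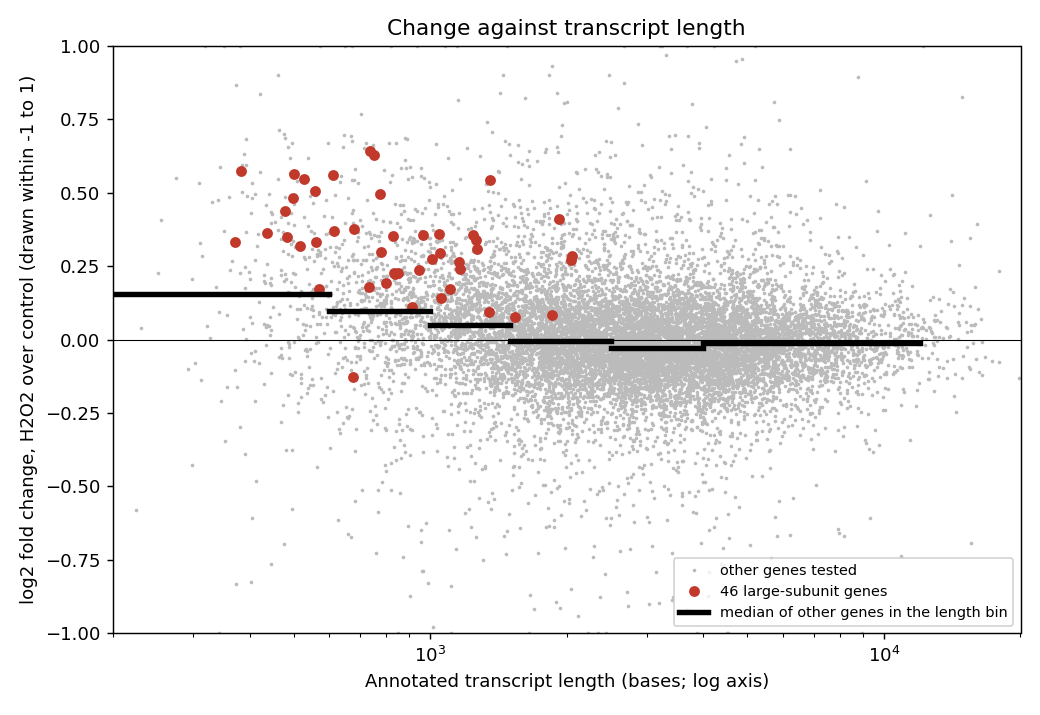
Log2 fold change, H2O2 over control, against annotated transcript length (log axis) for the 46 genes (red) and the other genes tested (grey, drawn within -1 to 1), with the median of the other genes in each length bin in black. The black line stands at 0.16 under 600 bases and at -0.00 between 1500 and 2500 bases, and nearly all red points lie above it.

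The features the genes carry in the genome were set beside their responses. The 46 genes lie on 17 chromosomes, at most 6 of them on 1 chromosome (11). A snoRNA gene lies within 20 of them; those members had a median log2 change of 0.29, and the other 26 had 0.36. The counting's strand setting is not known, so neither is the handling of reads over bases that a member shares with a gene on the other strand. Such reads may have been set aside as ambiguous, and how many were lost for each member was not tested. Opposite-strand genes covered over 20% of the exon bases of 5 members, whose median was 0.27, against 0.34 for the other 41. The largest such overlap was 66.2% of Rpl35, by Arpc5l and Wdr38 together. Wdr38 had at most 0.118 CPM in any library, and Arpc5l had 85.1 ± 1.67 CPM with H2O2 and 82.0 ± 1.14 CPM in controls (adjusted p = 0.332).

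Genes of the small (40S) subunit were also higher. All 32 of them passed the test, with a median log2 change of 0.39 against 0.33 for the large subunit. Of all genes tested, 9.7% were higher. With the length and GC offset 31 of the 32 were higher and 0 lower, with a median of 0.31. Rps14, which had the smallest p among them, averaged 372 ± 28.2 CPM with H2O2 and 234 ± 4.88 CPM in controls (log2 change 0.67, SE 0.0382, adjusted p = 1.4e-12). Rps2, the most abundant, averaged 1309.8 ± 82.4 CPM with H2O2 and 915 ± 19.3 CPM in controls (log2 change 0.52). The summed small-subunit share was 1.43% ± 0.0438 of gene counts with H2O2 and 1.10% ± 0.0237 in controls.

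The ratio of large-subunit to small-subunit counts was 1.57, 1.59 and 1.59 in the H2O2 libraries, against 1.70, 1.69 and 1.67 in the controls. All H2O2 libraries lay below all controls, with a mean difference of -0.0983, and the two-sided exact permutation test gave p = 0.1, the smallest this design allows. Without Rpl13, Rpl4 and Rpl8 the difference was -0.0546, an absolute value in a ratio that is itself smaller without them.

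**Figure D5:**
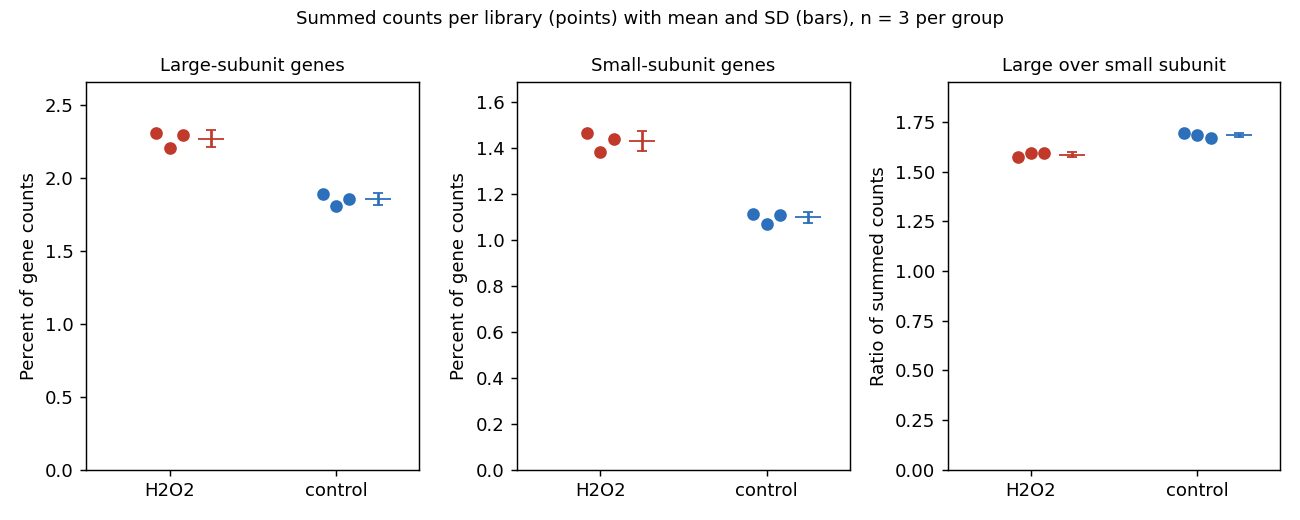
Summed counts of large-subunit genes and of small-subunit genes as a percentage of all gene counts, and the ratio of the sums, in each library (points) with mean and SD (bars), n = 3 per group. Both percentages are higher with H2O2 (2.27% against 1.85% and 1.43% against 1.10%), and the ratio is lower (1.59 against 1.68).

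Transcripts of the factors that build the large subunit were lower or were not called. Of 28 factors that assemble the large subunit, 0 were higher and 16 were lower, with a median log2 change of -0.11. Among all genes tested, 9.7% were higher and 10.8% lower. The count of lower factors was 8 without H2O2 replicate 1 and 10 without control replicate 2. Pes1, a nucleolar factor needed for maturation of the large-subunit RNA, averaged 126 ± 1.60 CPM with H2O2 and 148 ± 3.36 CPM in controls (log2 change -0.22, SE 0.0326, adjusted p = 1.3e-05). Ftsj3, the most abundant of them and a methyltransferase of the precursor RNA, averaged 157 ± 3.91 CPM with H2O2 and 181 ± 3.84 CPM in controls (log2 change -0.21, SE 0.0319, adjusted p = 2.9e-05). These transcripts are longer, with a median annotated length of 2794 bases. Among genes that are not members, those between 2500 and 4000 bases had a median log2 change of -0.03.

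Of 46 mitochondrial large-subunit genes tested, 16 were higher and 1 was lower, with a median log2 change of 0.07. Among all genes tested, 9.7% were higher and 10.8% lower. Without control replicate 2 the count of higher mitochondrial genes was 10. With the length and GC offset it was 8, in a fit where 1248 of all 12924 genes were higher. Mrpl34 averaged 23.9 ± 0.969 CPM with H2O2 and 17.9 ± 0.837 CPM in controls (log2 change 0.42, SE 0.0627, adjusted p = 1.8e-05). Mrpl44 averaged 48.5 ± 1.32 CPM with H2O2 and 53.0 ± 2.01 CPM in controls (log2 change -0.13, SE 0.0436, adjusted p = 0.0383), a call that DESeq2 did not make (adjusted p = 0.107). Mrpl45, the most abundant, had a log2 change of -0.09 (adjusted p = 0.101).

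A list of 18 other mRNAs known to carry a TOP tract moved both ways: 5 were higher and 4 lower, with a median log2 change of 0.03. Among all genes tested, 9.7% were higher and 10.8% lower. Without H2O2 replicate 3, control replicate 2 or control replicate 3, 2 mRNAs of the list were lower. Fau is on this list and among the small-subunit genes. Gnb2l1, which encodes the small-subunit scaffold protein RACK1, averaged 783 ± 18.4 CPM with H2O2 and 595 ± 7.10 CPM in controls (log2 change 0.40, SE 0.0272, adjusted p = 3.7e-11). Eef2, the elongation factor that moves the ribosome along the mRNA, averaged 3423 ± 42.9 CPM with H2O2 and 3945 ± 72.4 CPM in controls (log2 change -0.21, SE 0.0266, adjusted p = 2.3e-06).

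The genes of large-subunit paralogs outside the naming rule ran over a wide range of levels. Rpl22l1, the paralog of Rpl22, averaged 26.7 ± 0.606 CPM with H2O2 and 19.4 ± 2.06 CPM in controls and was higher (log2 change 0.46, SE 0.0660, adjusted p = 8.7e-06). Rpl36al, which encodes a protein nearly identical to Rpl36a, averaged 99.0 ± 4.72 CPM with H2O2 and 81.6 ± 3.65 CPM in controls and was also higher (log2 change 0.28, SE 0.0410, adjusted p = 1.3e-05). Rpl7l1 averaged 166 ± 3.30 CPM with H2O2 and 170.1 ± 3.09 CPM in controls (log2 change -0.03, adjusted p = 0.512). Rpl3l was not tested, with at most 0.116 CPM in any library, and Rpl10l and Rpl39l had 0 counts in all 6 libraries.

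The libraries held 26042296 to 27618679 gene counts with H2O2 and 22455388 to 25626849 in controls, of which 600933 to 623119 and 416888 to 472134 fell on large-subunit genes. H2O2 replicate 3 stood apart in features that resemble ribosomal RNA, at 0.385% of its gene counts against 1.01% to 1.14% in the other H2O2 libraries and 1.05% to 1.18% in controls; without it 43 members were higher. Its counts also differed most from those of the other libraries of its group, as the chi-square between libraries shows: divided by its degrees of freedom it was 9.13 and 11.7 for the pairs with H2O2 replicate 3, 2.81 for the other H2O2 pair and 1.64 to 2.96 for the control pairs. The endothelial label was borne out by most of its markers: the summed level of 10 endothelial markers was 4310 to 4338 CPM with H2O2 and 4082 to 4168 CPM in controls, and 3 of the 10 (Pecam1, Tek and Emcn) were called higher, while Cldn5 was at most 0.44 CPM. Of 5 leukocyte markers the sum was 162 to 169 CPM with H2O2 and 157 to 163 CPM in controls, nearly all of it Cd68, with Cd3e at 0. The sums of 5 epithelial and 3 erythroid markers were at most 0.279 CPM in every library. Those of 5 fibroblast markers were 24.9 to 28.0 CPM with H2O2 and 27.0 to 28.8 CPM in controls, and those of 5 smooth muscle and pericyte markers 3.76 to 4.60 and 3.83 to 5.30 CPM in the same groups; no marker of these other cell types was called.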

How the data were processed

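RNA of 3 H2O2 and 3 control libraries was measured by mRNA sequencing. Each deposited file holds raw counts of reads, 1 whole number for each gene symbol, not normalised by the authors. The submitters' processing notes name HTSeq, STAR 2.5.3, cutadapt, bcl2fastq 2.17.1.14 and DESeq2, and mm10 as the build. Which annotation was counted, and with which strand setting, is not given in the sources used here. The HTSeq classes that name no gene entered neither library sizes nor tests; reads without a feature were 4.76% to 5.46% of counted reads with H2O2 and 5.07% to 5.29% in controls, ambiguous reads 3.18% to 3.30% and 3.17% to 3.26%, and reads aligned to several places 11.0% to 11.1% and 11.4% to 11.7%. Within each group all pairs of libraries differed beyond sampling noise.

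Of 33006 genes, 12924 passed edgeR's filterByExpr. Under R 4.3.3, edgeR 4.0.16 (with limma 3.58.1) was used for its quasi-likelihood test on all these genes, with TMM factors and a model of treatment alone; Benjamini-Hochberg adjustment ran over all of them, with a threshold of 0.05 for the adjusted p. SE is the standard error of the log2 fold change, H2O2 over control. A second fit used the summed counts of the 46 members as library size. Shares were compared with two-sided exact permutation tests. The script was checked on simulated data with known changes. Transcript lengths, GC content, overlaps and shared 50-base stretches came from GENCODE M21 on GRCm38, and promoter windows from RefSeq (GRCm38.p6).

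The members, role groups and other lists were chosen with earlier results of these data known. Values per library are given for all P-stalk and 5S proteins, the largest and smallest change of each other role group, the 5 largest and 5 smallest changes of all, members not called higher, and up to 5 members with the smallest p per direction in the share fit. Further members are named for their role or place in the range, chosen after their values were seen; lists of other genes are given by the smallest p in each direction and the most abundant gene, and the paralogs are named, except 1 that is not reported here. Alternatives were other scaling factors, DESeq2 1.42.0, limma-voom, other filters, the replicate number as a block, an offset for length and GC content (loess, span 0.3), pseudogene counts added to their gene, and leaving out each library.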

Additional observations from a re-analysis of the deposited data

How the results depend on the processing

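Of 828 values of single members over 18 alternatives, 799 kept direction and call, 15 lost the call, 14 gained it and 0 changed sign; 38 of 46 members kept both throughout. The number of higher members stayed within 41 to 45. With the length and GC offset 1 member was called lower and the median log2 change was 0.23, and the offset with the replicate block gave the same 1 and 0.23. The large-subunit share differed by 0.343 percentage points without the 3 most abundant members and by 0.416 with all members. The ratio to small-subunit counts differed by -0.0546 without them and by -0.0983 with all. These are absolute differences, and the sums without the 3 members are smaller, so the values do not compare relative changes. Same-numbered libraries of the groups did not deviate together (correlations 0.00224, 0.0299 and -0.0261; 2 of 6 libraries correlated best with their own number), so the numbers were not taken as pairs; with the replicate block 45 members were higher, and 19 gained and 11 lost share, with Rpl12 (adjusted p = 0.0145) and Rplp2 (0.0338) among the gains and Rpl8 (0.0276) among the losses. Leaving out 1 library gave 42 to 45 higher members, 12 to 14 gained and 8 to 10 lost shares, 31 to 32 small-subunit genes higher, 8 to 17 assembly factors lower, 2 to 4 other TOP mRNAs lower, and 10 to 16 mitochondrial genes higher and 0 to 3 lower; the alternatives for these other lists were chosen after the data were seen. Mitochondrial genes called lower were 0 with DESeq2, upper-quartile factors, library size only, no filter and the stricter filter, and 2 with the offset, with and without the block, which left 8 higher. Over all genes tested, leaving out 1 library gave 891 to 1178 higher and 926 to 1313 lower, against 1254 and 1395 with all 6. The cause of these shifts was not tested. The lowest count of a member was 649 (Rpl24); the part of depth in its error was not tested.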
